A study of Mus musculus with 21 samples.

Results

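A set of 10 genes that mark fat cells, of the 56691 genes in the deposited table, was followed across 21 mouse heart libraries. They were chosen by name, as genes known from fat cells: the secreted adipokines *Adipoq*, *Cfd*, *Retn* and *Lep*, the lipid droplet genes *Plin1*, *Plin4*, *Cidec* and *Cidea*, the enzyme gene *Pck1* and the brown fat gene *Ucp1*. The mice were Control (given normal saline, n = 5), DOX (given doxorubicin, an anthracycline chemotherapy drug, n = 5), Tb (bearing subcutaneous tumors of 4T1 mouse breast cancer cells and given normal saline, n = 6) and Tb-DOX (bearing the same tumors and given doxorubicin, n = 5). DOX was injected intraperitoneally at 5 mg/kg once a week in 3 injections. The sample labels name the 4T-1 line as the source of every library, including the libraries without a tumor, while the study describes hearts. Strain, sex and age are not given in the sources used here, and neither is whether fat around the heart was trimmed.

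White fat cells store triglyceride in one large droplet coated by perilipin 1, and they secrete adipokines such as adiponectin into the blood. Brown fat cells burn fatty acids through uncoupling protein 1. Hearts carry epicardial fat on their surface and pericardial fat beside it, so a dissected heart can bring adipocytes along, whereas cardiomyocytes hold only small droplets and take up fatty acids mainly to oxidise them. In RNA from a whole tissue piece, fewer cells of a type and less RNA per cell cannot be told apart.

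Total counts were 13521200 to 18601445 per library. The cardiomyocyte gene *Myh6* had 257927 to 485752 counts per library, so the libraries hold heart muscle RNA despite the source label. One gene known from T cells, *Cd3e*, stood apart at 3854 counts in DOX 4 and 706 in Tb 5, against 0 to 213 in the other libraries. Other T cell genes were at a few reads in DOX 4, where *Cd3d* had 0 counts, *Cd4* 3, *Cd8b1* 0 and *Cd8a* 11, against at most 10 for *Cd8a* in the 19 libraries other than DOX 4 and Tb 5. In Tb 5 *Cd3d* had 44 counts, against at most 35 in those 19. Values without these 2 libraries are given beside the *Plin4* results and the counts of the gene lists. The summed FPKM (counts scaled to exon length and library total) was 1.01 to 5.66 for 9 mesothelial and epicardial markers, 0.06 to 1.63 for 5 lung and airway markers and 0.09 to 3.41 for 5 B cell markers. Markers of other parts of the heart were higher, at 60.3 to 137.8 for 5 markers of great vessel smooth muscle and 94.5 to 736 for 6 atrial markers, of which *Nppa*, the atrial natriuretic peptide gene, rose with DOX (log2 fold change 1.52 in DOX against Control and 1.65 in Tb-DOX against Tb). Their part in the results below was not tested. Of 6 erythroid markers, 5 passed the expression minimum and all 5 were lower with DOX, for example *Hbb-bs*, a beta globin gene, with a log2 fold change of −3.41 in DOX against Control and −5.49 in Tb-DOX against Tb.

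The members fell into 2 with clear expression and 8 at or near 0. Only *Plin4* and *Cidea* reached the minimum for testing, a mean of at least 0.5 FPKM over all libraries. The promoter sequences of *Plin4*, the member with the most reads, and of *Adipoq*, the defining adipocyte gene, are shown here from RefSeq for the build GRCm38.p6, as the 250 bases before each gene's start. *Plin4* lies at chr17:56109783-56110032 on the minus strand and *Adipoq* at chr16:23146286-23146535 on the plus strand. Capitals mark the CCAAT box, or ATTGG where it lies on the other strand, a promoter motif bound by NF-Y.
Plin4 promoter: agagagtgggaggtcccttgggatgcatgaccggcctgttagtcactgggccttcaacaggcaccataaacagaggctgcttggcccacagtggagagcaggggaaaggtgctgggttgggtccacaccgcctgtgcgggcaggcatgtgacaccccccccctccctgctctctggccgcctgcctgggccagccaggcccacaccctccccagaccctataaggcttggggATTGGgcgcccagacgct
Adipoq promoter: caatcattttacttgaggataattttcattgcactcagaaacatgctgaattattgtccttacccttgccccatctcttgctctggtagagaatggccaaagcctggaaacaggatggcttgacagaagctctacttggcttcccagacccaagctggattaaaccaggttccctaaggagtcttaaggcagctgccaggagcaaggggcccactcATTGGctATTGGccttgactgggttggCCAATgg
The *Adipoq* window held 3 matches and the *Plin4* window 1, counted on both strands, and 33.8% of all 32851 RefSeq promoter windows of this length held at least 1. Among the members it occurred in these 2 windows only, of 10 windows found for 9 members. No window of *Cidea* was searched. The letters AGGTCA, the half-site read by PPAR and other nuclear receptors, occurred on either strand in the *Ucp1* window alone among these members, against 14.0% of all windows.

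Among the adipokines, *Adipoq*, which encodes adiponectin (chr16:22965286-22976778 on GRCm39, plus strand), had 0 to 6 counts per library and 47 counts in all. Control libraries 1 to 5 had 0, 4, 0, 3 and 4 counts, and DOX libraries 1 to 5 had 5, 0, 2, 0 and 1. Tb libraries 1 to 6 had a lowest value of 0, a median of 1.5 and a highest of 6, and Tb-DOX libraries 1 to 5 had 1, 3, 4, 5 and 0. Every group therefore ran from 0 to between 4 and 6 counts, and the groups overlapped fully. *Cfd*, the complement factor D gene also called adipsin (chr10:79726687-79728489), had the highest mean of the 8 low members, at 0.282 FPKM. Its counts were 0 to 6 in Control, 0 to 10 in DOX, 3 to 10 in Tb and 0 to 9 in Tb-DOX. *Lep*, which encodes the satiety hormone leptin (chr6:29060219-29073876), had 10 counts over all libraries, was at 0 in 16 of 21 with every DOX library at 0. Since a count of 0 allows up to 3 counts at the depth of a library, a gene at 0 was not detectable at this depth, which does not show that it was absent. Such limits cover counting error only.

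*Retn*, which encodes resistin, an adipocyte hormone in mice (chr8:3705770-3710110), had 70 counts in all. Control libraries had 0, 0, 2, 0 and 1 counts, DOX libraries 8, 0, 1, 1 and 0, and Tb-DOX libraries 8, 5, 6, 9 and 1. Tb libraries 1 to 6 had 1, 7, 0, 0, 13 and 7. The Tb and Tb-DOX values thus reached higher than those of Control, but the ranges overlapped. In an edgeR fit without an expression minimum over 34543 genes, Tb against Control had an unadjusted p of 0.0212 and an adjusted p of 0.24. The related gene *Retnlg*, a resistin-like gene known from neutrophils, had 0 to 1 counts in Control, 11 to 97 in DOX, 474 to 5611 in Tb and 741 to 2883 in Tb-DOX. Whether reads of this near relative contribute to the *Retn* counts was not tested.

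The droplet genes of white fat were as low. *Plin1*, the perilipin of large fat cell droplets (chr7:79369966-79382651), had reads in 4 libraries only: 4 counts in Control 5, 1 in DOX 2, 2 in DOX 3 and 2 in Tb 4. The Tb-DOX group had none. *Cidec*, which fuses small droplets into the single large one (chr6:113401595-113412721), had 49 counts in all. Its Control values were 2, 2, 4, 1 and 2 counts, its DOX values 5, 3, 2, 0 and 0, and its Tb-DOX values 0, 8, 10, 1 and 0. Tb libraries 1 to 6 had 0, 0, 2, 2, 0 and 5. Tb-DOX 2 and 3 were the highest, and the same group also held libraries at 0.

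*Pck1*, the cytosolic enzyme that supplies glycerol phosphate for triglyceride in fat and glucose in liver (chr2:172994841-173001066), had 0 to 3 counts in Control, 0 to 10 in DOX, 0 to 9 in Tb and 0 to 5 in Tb-DOX, and was at 0 in 11 of 21 libraries. Its highest values were 10 counts in DOX 1, 9 in Tb 4 and 6 in DOX 2. *Ucp1*, which uncouples respiration in brown fat (chr8:84016981-84025081), had 10 counts in all: 3 each in DOX 1 and DOX 4 and 2 each in Tb 2 and Tb 5. Both Control and Tb-DOX were at 0 in every library, and since no group exceeded 3 counts in a library no fold is given.

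**Figure D1:**
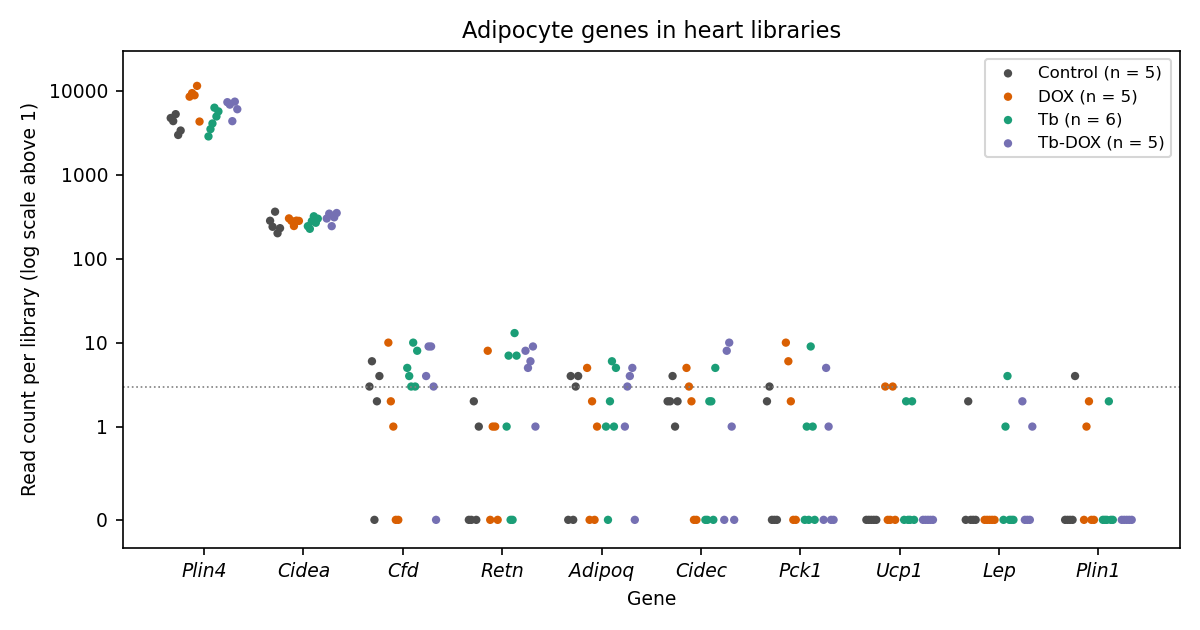
Read counts of the 10 adipocyte genes in each of the 21 heart libraries, on a vertical axis that is logarithmic above 1, with 1 point per library colored by group (Control, DOX, Tb, Tb-DOX) and a dotted line at 3 counts. *Plin4* lies between 2862 and 11445 counts and *Cidea* between 201 and 363, while the other 8 genes stay at 13 counts or fewer.

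Summed over the 8 low members, the libraries held 1 to 41 counts. Control libraries had 7, 17, 6, 6 and 15 counts, and DOX libraries 41, 12, 10, 4 and 1. Tb libraries had 7, 15, 11, 29, 20 and 25, and Tb-DOX libraries 15, 30, 30, 18 and 2. The spread within groups was wide: DOX held both the highest and the lowest library, with exact Poisson 95% intervals of 29.4 to 55.6 counts for DOX 1 and 0.0253 to 5.57 for DOX 5, which cover counting error only. In FPKM the sums ran from 0.05 to 1.64, and the group medians were 0.36 in Control, 0.35 in DOX, 0.74 in Tb and 0.86 in Tb-DOX. The 8 genes made up 0.0752% to 2.38% of the summed FPKM of all 10 members, so *Plin4* and *Cidea* carried nearly the whole sum in each library. *Adipoq* and *Cfd* were both above 0 in 14 libraries, and *Adipoq*, *Plin1* and *Cidec* were all above 0 in 3.

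**Figure D2:**
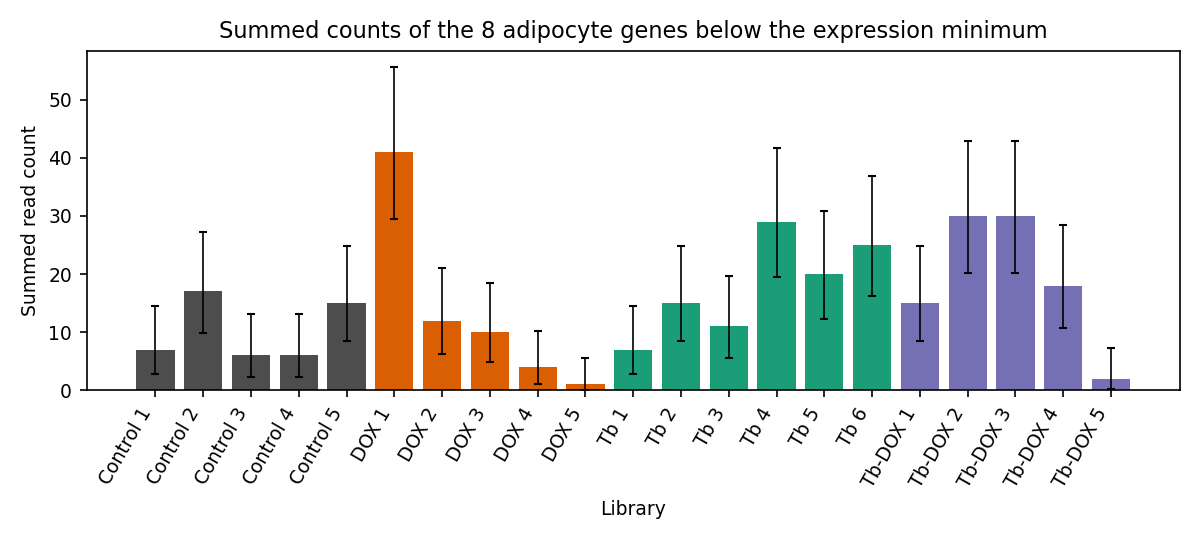
Summed read count of the 8 adipocyte genes below the expression minimum in each library (bars colored by group, vertical axis from 0), with exact Poisson 95% intervals. DOX 1 is highest at 41 counts and DOX 5 lowest at 1, and each group spans libraries of under 10 and of 15 or more counts.

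*Plin4* was upregulated by DOX in mice without a tumor. This gene encodes perilipin 4, a coat protein of small nascent lipid droplets that is abundant in white fat and is also expressed in heart and skeletal muscle (chr17:56407591-56416803, GRCm39, minus strand). Control libraries 1 to 5 had 4741, 4355, 5270, 2977 and 3363 counts, and DOX libraries 1 to 5 had 8513, 9386, 8849, 11445 and 4302. DOX libraries 1 to 4 lay above all Control libraries, and DOX 5 lay within the Control range in counts and in FPKM. Scaled to counts per library total (CPM) with TMM factors, Control ran from 219 to 304 CPM and DOX from 341 to 918 CPM, and the groups did not overlap. The mean level was 42.9 ± 7.92 FPKM in Control (SD, n = 5) and 90.3 ± 28.9 FPKM in DOX (SD, n = 5). edgeR's quasi-likelihood test gave a log2 fold change of 1.22 ± 0.196 (SE), a 2.33-fold higher level, with an adjusted p of 9.26e-05. For this gene alone, exact permutation of the libraries (two-sided, log2 of FPKM + 0.1) gave a difference of 1.02 and p = 0.0159, where the smallest possible p is 0.00794.

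Of the 2 members tested, *Plin4* alone was called in DOX against Control (an adjusted p below 0.05 with a log2 fold change of 1 or more in either direction), against 9.95% of all 13990 genes tested. The low members are given beside it. DOX 4 had the most *Plin4* reads of any library and a sum of 4 counts over the 8 low members, while DOX 1 had the highest such sum. Without DOX 1 the log2 fold change of *Plin4* was 1.25 (edgeR adjusted p = 0.000196), and without DOX 4, a library high in *Cd3e*, it was 1.04 (edgeR adjusted p = 0.000392). Of 8 cardiomyocyte markers, 3 passed an adjusted p of 0.05 upward in the same comparison and 0 downward, with a list median of 0.28, where 18% of all genes passed upward by the same rule. They were *Myh6* (0.43), *Tnnt2*, cardiac troponin T (0.96), and *Myl3*, a myosin light chain (0.31), while *Ryr2*, the calcium release channel, had −0.13 and did not pass. Without DOX 4 and Tb 5, 2 of the 8 passed, and their part in the *Plin4* difference was not tested. *Plin4* overlaps *Hdgfl2* on the opposite strand by 17 bases, and *Hdgfl2* had 447 to 986 counts per library. Whether counting used strand is not given in the sources used here.

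In tumor-bearing mice the difference was smaller. Tb libraries 1 to 6 had 2862, 3494, 4081, 6294, 4943 and 5685 *Plin4* counts, and Tb-DOX libraries 1 to 5 had 7315, 6846, 4349, 7428 and 6034. The ranges of counts overlapped: Tb-DOX 3 lay below 3 of the Tb libraries, and Tb 4 lay above Tb-DOX 5. In TMM-scaled CPM the overlap was smaller, with Tb from 187 to 324 CPM and Tb-DOX from 314 to 423 CPM. There Tb-DOX 3, at 314 CPM, lay below Tb 4 (317 CPM) and Tb 6 (324 CPM). The other Tb-DOX libraries, from 359 CPM upward, lay above every Tb library. Mean levels were 43.9 ± 10.5 FPKM in Tb (SD, n = 6) and 63.2 ± 9.89 FPKM in Tb-DOX (SD, n = 5). The log2 fold change of 0.52 ± 0.184 did not pass the test across genes (edgeR adjusted p = 0.109), while the exact permutation test for *Plin4* alone gave p = 0.0195 without adjustment. Without DOX 4 and Tb 5 the value was 0.55 (edgeR adjusted p = 0.0548). Of the 8 cardiomyocyte markers, 4 passed an adjusted p of 0.05 upward in this comparison, with a list median of 0.39, and 2.18% of all genes passed upward. Leaving out these 2 libraries also gave 4, with a median of 0.38. Their part in the *Plin4* values was not tested. Neither tested member was called in Tb-DOX against Tb, where 1.11% of genes were called.

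The difference between the 2 DOX effects was tested itself. For *Plin4* the interaction of DOX and tumor was −0.70 ± 0.268 on the log2 scale, with an unadjusted p of 0.0158 and an edgeR adjusted p of 0.0918. Leaving out DOX 5, the lowest DOX library, gave −0.87 and an edgeR adjusted p of 0.0206, and leaving out DOX 4, the highest, gave −0.53 and 0.188. Without DOX 4 and Tb 5 together it was −0.50 (edgeR adjusted p = 0.228). Neither tested member was called for the interaction, against 3.89% of genes, or 8.94% past the adjusted p alone. The tumor alone left *Plin4* with a log2 fold change of −0.01 ± 0.185 in Tb against Control (edgeR adjusted p = 0.978, and −0.04 without DOX 4 and Tb 5), and neither member was called there, against 3.6% of genes. In Tb-DOX against DOX, *Plin4* was lower by a log2 fold change of −0.71 ± 0.194 (edgeR adjusted p = 0.0146), below the fold change minimum, so that neither member was called, against 5.62% of genes. Without DOX 4 that value was −0.53 (edgeR adjusted p = 0.0623), and without DOX 4 and Tb 5 together it was −0.54 (edgeR adjusted p = 0.0373). These comparisons share libraries: Control and DOX each enter 2 of them, as do Tb and Tb-DOX.

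*Cidea* changed little. It encodes a droplet-associated protein known from brown fat, and is also expressed in heart. Its counts ran from 201 to 363 in all libraries, and the mean levels were 15.6 ± 2.86 FPKM in Control (SD, n = 5), 16.9 ± 1.39 in DOX (SD, n = 5), 15.1 ± 1.54 in Tb (SD, n = 6) and 17.5 ± 1.51 in Tb-DOX (SD, n = 5). Control libraries had 283, 240, 363, 201 and 231 counts, and DOX libraries had 302, 282, 245, 284 and 282. Tb libraries had 244, 227, 280, 320, 268 and 300 counts, and Tb-DOX libraries had 301, 344, 244, 311 and 350. The groups overlapped in every comparison. The log2 fold change was 0.27 ± 0.111 in DOX against Control (edgeR adjusted p = 0.0622) and 0.21 ± 0.106 in Tb-DOX against Tb (edgeR adjusted p = 0.284). The first value passed an adjusted p of 0.05 without Control 3, the highest Control library (0.35, edgeR adjusted p = 0.019), without DOX 3, the lowest DOX library (0.36, edgeR adjusted p = 0.0148), and without Tb 5 (0.28, edgeR adjusted p = 0.0494), always below the fold change minimum. The exact permutation test gave p = 0.333 and p = 0.0325 for the same comparisons. *Cidea* overlaps a gene on the opposite strand, *B430212C06Rik*, by up to 500 bases.

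**Figure D3:**
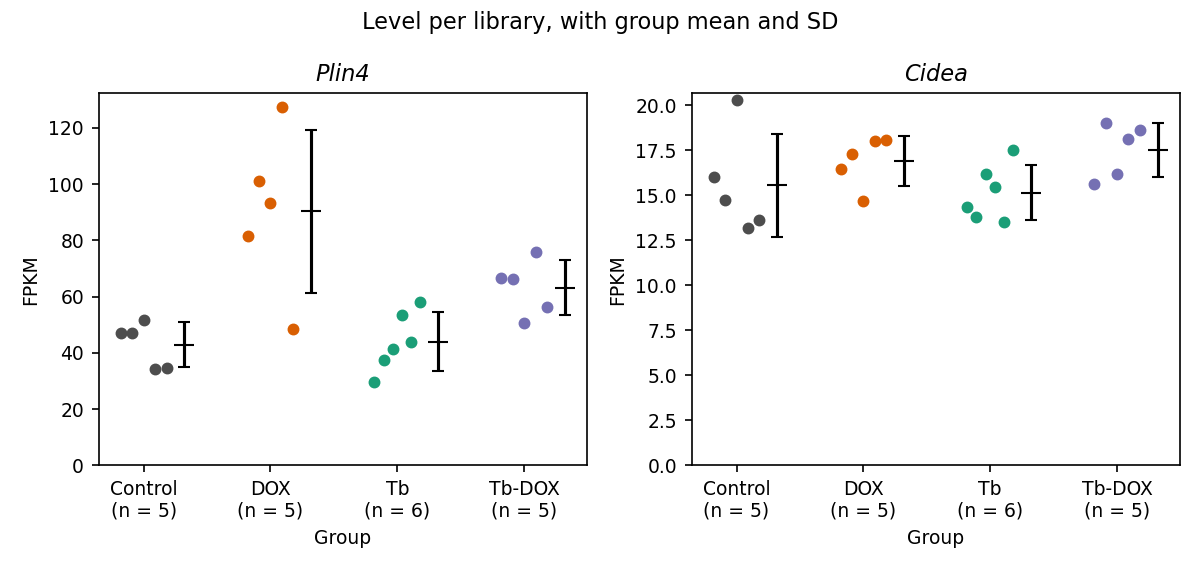
FPKM of *Plin4* (left) and *Cidea* (right) in each library by group, with 1 point per library and the group mean and SD drawn in black beside the points, on linear axes from 0. *Plin4* averages 90.3 FPKM in DOX against 42.9 in Control, with DOX 5 at 48.4 among the Control values, while the *Cidea* groups overlap between 13.2 and 20.3 FPKM.

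For the 8 members below the minimum, the same permutation test was run in all 4 pairwise comparisons. Over the 10 members and 4 comparisons, 3 of the tests were under 0.05 before any adjustment, all 3 of them for *Plin4* or *Cidea* as given above. On this scale a change in a gene with few reads is understated. In the edgeR fit of all 34543 genes with a read, the adjusted p stayed above 0.05 for the 8 low members in all 5 comparisons. Before adjustment, the edgeR p of *Ucp1* was under 0.05 in 3 comparisons, at 0.0247 in DOX against Control, 0.0221 in Tb-DOX against DOX and 0.00502 for the interaction, where the edgeR adjusted p was 0.0864. These values rest on 10 reads in all and on groups at 0.

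The other perilipins tested did not rise with DOX. They were *Plin2*, which coats droplets in most tissues, *Plin3*, a broadly expressed form, and *Plin5*, which ties droplets to mitochondria in heart and other oxidative tissue. In DOX against Control, *Plin2* fell by 0.57 on the log2 scale (SE 0.158, edgeR adjusted p = 0.00782) and *Plin5* fell by 0.68 (SE 0.198, edgeR adjusted p = 0.0103), while *Plin3* had a log2 fold change of −0.14 (SE 0.135, edgeR adjusted p = 0.451). *Plin5* is encoded beside *Plin4* on the same strand of chromosome 17, at positions 56418601 to 56424596. Its level was 31.2 ± 8.89 FPKM in Control (SD, n = 5) and 17.6 ± 5.31 FPKM in DOX (SD, n = 5). In Tb-DOX against Tb none of the 3 passed, with log2 fold changes of −0.49, 0.34 and 0.00 and edgeR adjusted p of 0.0602, 0.13 and 0.996 for *Plin2*, *Plin3* and *Plin5*. *Cideb*, the liver member of the CIDE family, had 3 to 23 counts per library and a log2 fold change of −0.50 in DOX against Control (edgeR adjusted p = 0.434). Per length, *Plin4* was the most abundant perilipin here, at a mean of 59.3 FPKM over all libraries, against 33.1 for *Plin3*, 23.1 for *Plin5*, 14.5 for *Plin2* and 0.00571 for *Plin1*.

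**Figure D4:**
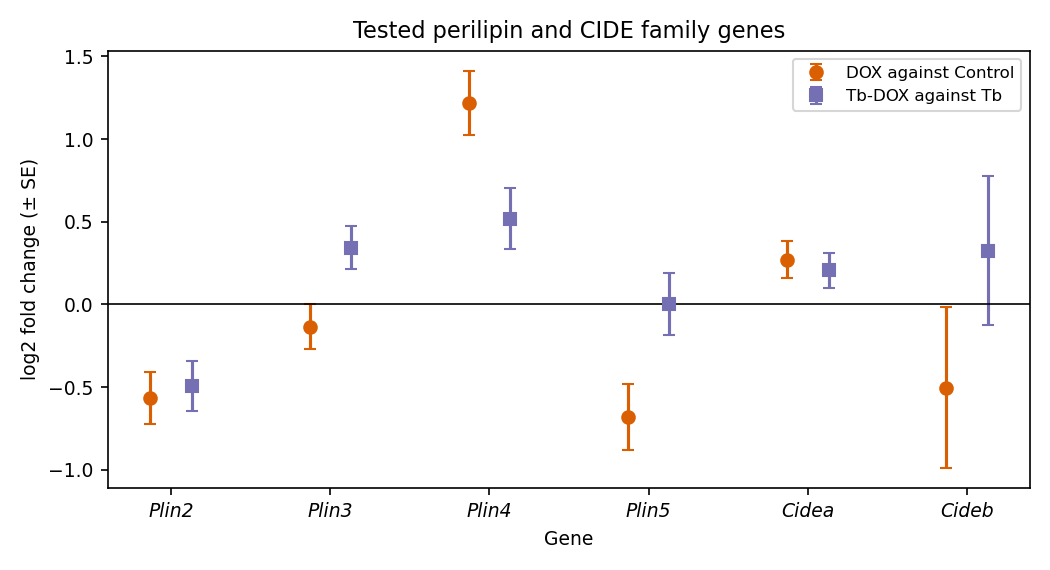
log2 fold change with its SE for the perilipin and CIDE genes that passed the expression minimum, in DOX against Control (circles) and Tb-DOX against Tb (squares), from edgeR. *Plin4* is at 1.22 and 0.52, whereas *Plin2* is at −0.57 and −0.49 and *Plin5* at −0.68 and 0.00.

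Of 24 other adipocyte genes in the table, 17 met the minimum and were tested, and their levels ranged widely. The 2 most abundant were *Lpl*, lipoprotein lipase, at a mean of 687 FPKM, and *Cd36*, a fatty acid transporter, at 600.2 FPKM, both well known from cardiac fatty acid uptake. *Fabp4*, a fatty acid binding protein of fat cells and blood vessels, was at 151 FPKM, and *Lipe*, hormone-sensitive lipase, at 6.06 FPKM. Among the 7 genes below the minimum, *Adrb3*, the beta-3 adrenergic receptor of fat, had 0 to 4 counts per library, *Tshr* 0 to 2 and *Acvr1c* 0 to 3. *Slc7a10* had 0 to 4, while *Lgals12* had 0 to 20, *Trarg1* 2 to 48 and *Car3* 1 to 62 counts per library. *Pparg*, the main regulator of fat cell differentiation, was at a mean of 3.61 FPKM and had an edgeR adjusted p of 0.498 in DOX against Control. In that comparison 2 of the 17 genes passed an adjusted p of 0.05 upward (*Lpl*, 0.80, and *Gpd1*, 0.58) and 6 downward, with a list median of −0.39 against 0.00 over all genes. By the same rule, without a fold change minimum, 18% of all 13990 genes were higher in DOX than in Control and 18.2% lower. In Tb-DOX against Tb 2.18% were higher and 2.54% lower, and the counts of all lists below are to be read against these shares. In the fit without DOX 4 and Tb 5, 18 genes of the list met the minimum, and 2 passed upward and 7 downward in DOX against Control. The largest decreases were those of *Aqp7*, a glycerol channel, at −1.36 (edgeR adjusted p = 0.00497), and *Sncg*, gamma-synuclein, at −1.08 (edgeR adjusted p = 6.88e-05). In Tb-DOX against Tb, 1 gene rose and 2 fell: *Gpd1*, which makes glycerol phosphate, at 1.04 (edgeR adjusted p = 0.00052), *Angptl4*, an inhibitor of lipoprotein lipase, at −2.46 (edgeR adjusted p = 0.018) and *Fabp4* at −0.54 (edgeR adjusted p = 0.0132). The counts were the same without DOX 4 and Tb 5. The *Angptl4* value had an edgeR adjusted p of 0.0521 without Tb-DOX 3, and it was −0.95 in limma on log2(FPKM + 1), a scale that understates changes of a gene at a mean of 0.881 FPKM.

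Of 13 brown fat genes, 8 were tested, led by *Fabp3*, the muscle and heart fatty acid binding protein, at a mean of 2554 FPKM and *Cox8b*, a cytochrome oxidase subunit of muscle and brown fat, at 423 FPKM. *Prdm16* and *Ebf2*, transcription factors of brown fat, had 88 to 280 and 64 to 201 counts per library, while *Zic1*, a brown fat marker, had at most 1 count in any library. *Fabp3* fell by 1.02 on the log2 scale in DOX against Control (edgeR adjusted p = 0.000711), and *Cox7a1* was the other of 2 that fell, with 0 that rose, also without DOX 4 and Tb 5. None passed in Tb-DOX against Tb (1 passed, downward, without DOX 4 and Tb 5), where the *Fabp3* value was −0.66 (edgeR adjusted p = 0.0565).

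Among 16 tested genes of fatty acid and triglyceride synthesis, 7 rose and 4 fell in DOX against Control, with a list median of 0.34. The counts were the same without DOX 4 and Tb 5, with a median of 0.24. With the fold change minimum, 1 gene was called higher and 1 lower. *Acaca*, which makes malonyl-CoA, rose by a log2 fold change of 1.03 (edgeR adjusted p = 0.00166), with 0.74 without DOX 3 and 0.41 in limma on log2(FPKM + 1), and *Srebf1*, a regulator of lipogenic genes, by 0.97 (edgeR adjusted p = 8.53e-05). *Gpam*, which catalyses the first step of glycerolipid synthesis, fell in both settings, by 1.40 in DOX against Control (edgeR adjusted p = 0.000353) and by 1.07 in Tb-DOX against Tb (edgeR adjusted p = 0.0178, and 0.0741 with Tb and Tb-DOX alone in the fit). *Dgat2*, the most abundant of the list at 47.9 FPKM, had log2 fold changes of −0.42 and 0.10 and passed in neither. In Tb-DOX against Tb 1 of the 16 rose and 3 fell, or 2 and 3 without DOX 4 and Tb 5.

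Droplet and lipolysis genes showed 1 increase and 5 decreases among 14 tested in DOX against Control, with a list median of −0.44. The counts were the same without DOX 4 and Tb 5, with a median of −0.35. With the fold change minimum, 0 genes were called higher and 2 lower. The increase was *Pnpla2*, the lipase for the first step of triglyceride breakdown and the most abundant gene of the list, at 0.86 (edgeR adjusted p = 0.00017). *Mgll*, the lipase for the last step, fell by 1.08 (edgeR adjusted p = 8.33e-05), and *Fitm2*, a droplet formation gene, had −0.49 (edgeR adjusted p = 0.0508). In Tb-DOX against Tb 1 gene of the list fell, or 2 without DOX 4 and Tb 5. It was *Mgll* again, at −0.58 (edgeR adjusted p = 0.0442), and this value passed in 9 of the 21 fits that left out a library, with an edgeR adjusted p of up to 0.124.

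The receptors for the near-absent adipokines were present. All 5 of the list were tested, and 2 rose in DOX against Control: *Lepr*, the leptin receptor, at 1.24 (edgeR adjusted p = 2.64e-05), and *Adipor2*, an adiponectin receptor, at 0.25 (edgeR adjusted p = 0.0129). The *Adipor2* value passed in 27 of 30 alternatives, and was down to 0.11 with an adjusted p of up to 0.383 in limma on FPKM. *Lepr* had 213 to 318 counts in Control, 321 to 753 in DOX, 192 to 413 in Tb and 347 to 510 in Tb-DOX, without overlap between DOX and Control, and it rose in Tb-DOX against Tb by 0.73 (edgeR adjusted p = 0.0144). The list counts were the same without DOX 4 and Tb 5, with 2 higher in DOX against Control and 1 in Tb-DOX against Tb. *Adipor1*, the most abundant, at 26.7 FPKM, passed in neither. Of 12 tested transcription factors of the adipocyte program, 2 rose and 0 fell in DOX against Control, *Klf15* (0.89, edgeR adjusted p = 0.018) and *Srebf1*. The *Klf15* value was 0.51 without DOX 4 (edgeR adjusted p = 0.111) and 0.80 without Control 5 (edgeR adjusted p = 0.0506), and without DOX 4 and Tb 5 the list counted 2 higher and 2 lower. *Ppargc1a*, a regulator of mitochondrial genes and the most abundant, had 0.79 (edgeR adjusted p = 0.0702). None passed in Tb-DOX against Tb.

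Among 5 tested markers of fat progenitors, which fibroblasts of the heart also express, 1 rose and 1 fell in DOX against Control, with a list median of −0.18, and 0 passed in Tb-DOX against Tb. Without DOX 4 and Tb 5 the counts were 1 and 2. *Pdgfra*, a receptor of mesenchymal cells, rose by a log2 fold change of 0.44 (edgeR adjusted p = 0.00661), and *Pi16* fell. It had 669 to 1515 counts in Control, 41 to 223 in DOX, 830 to 1249 in Tb and 412 to 915 in Tb-DOX. Every DOX library lay below every library of the other groups. The log2 fold change was −2.85 ± 0.288 in DOX against Control (edgeR adjusted p = 1.28e-06) and −0.56 in Tb-DOX against Tb (edgeR adjusted p = 0.213), and the interaction was 2.29 (edgeR adjusted p = 0.00753). *Ly6a*, which encodes Sca-1 and was the most abundant of the list at 60.8 FPKM, had −0.40 in DOX against Control (edgeR adjusted p = 0.224), and rose by 0.99 in Tb against Control (edgeR adjusted p = 0.0147) and by 0.96 in Tb-DOX against DOX (edgeR adjusted p = 0.0123).

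Likeness of pattern was described over the 21 libraries with Spearman's rho on TMM-scaled log2 CPM, which share groups and scaling. The 10 tested genes most like *Adipoq* had rho of 0.603 to 0.701, among them *Angel2*, *Cacng6* and *Trim41*, and rest on 0 to 6 *Adipoq* reads per library, so that no pattern is read from them. For *Plin4* the highest values were 0.973 for *Serinc3*, 0.968 for *Lepr* and 0.96 for *Gm12295*. *Plin4* and *Cidea* had rho of 0.691, and *Plin4* and its neighbour *Plin5* −0.518.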

How the data were processed

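From mouse hearts, 21 RNA libraries were sequenced by the authors as paired reads, and libraries were grouped by their labels. Per the labels, mRNA was enriched with oligo(dT) beads or by rRNA depletion. The submitters' processing notes name cutadapt, FastQC, HISAT2, HTSeq 0.6.1, DESeq2 1.34.0 and GRCm39, and strandedness is not given in the sources used here. The authors deposited 1 table of 56691 genes with a raw read count and an FPKM value per library, and each FPKM equals the count scaled to exon length and library total within 0.0051 in 100.0% of values. Coordinates are those of the table. RefSeq promoters are on GRCm38.p6.

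The members and gene lists were chosen with earlier results of these data known. Counts were tested with edgeR 4.0.16 (R 4.3.3), TMM scaling, 1 coefficient per group, over 13990 genes with a mean of at least 0.5 FPKM, with Benjamini-Hochberg adjustment. A call needed an adjusted p below 0.05 with a log2 fold change of 1 or more in either direction. For single members, libraries were permuted exactly (two-sided, log2 of FPKM + 0.1). Named genes were the 10 members, the 2 most abundant tested genes of each list, the 2 with the largest called change per DOX comparison, and the genes most like *Adipoq*. *Retnlg*, the other perilipins and CIDE genes, genes most like *Plin4*, *Hdgfl2* and other genes named were chosen after their values were seen.

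Same-numbered libraries of different groups had residual correlations of −0.229 to 0.204 over 30 pairs, so no pairing was used. The labels do not say that libraries come from separate animals, so p-values measure the spread between libraries. Replicates differed by more than counting error (chi-square per degree of freedom of at least 5.33). TMM factors were 0.881 to 1.14. The test was checked on simulated data. Alternatives were median-ratio scaling, no minimum or 5 FPKM, only the groups compared, DESeq2 1.42.0, a block for the replicate number, limma 3.58.1 on log2(FPKM + 0.1) and log2(FPKM + 1), no minimum fold change, and each library left out. Added after seeing the data were leaving out DOX 4 and Tb 5 together, the permutation test with a pseudocount of 1, and TMM-divided FPKM sums.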

Additional observations from a re-analysis of the deposited data

Results flagged for a closer look

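Dixon's criterion at 95% was applied to 44 sets of group values. These were the members and 3 other perilipin genes, *Plin2*, *Plin3* and *Plin5*, in groups with over 3 counts in a library. The summed FPKM of the 8 low members was included too. In 7 sets, 1 library lay far from the rest. The criterion flags about 1 in 20 sets of normally spread values. Values tied at 0 FPKM raise its ratio, and groups of few reads entered only through a library above 3 counts. The 7 flags are therefore not read against that rate. DOX 1 was far above the other DOX libraries in *Cfd* (0.66 FPKM, next 0.15), in *Retn* (0.31 FPKM, next 0.04) and in the summed FPKM of the 8 low members (1.64, next 0.39). Control 5 was the only Control library with *Plin1* (0.06 FPKM). Tb 3 was far above its group in *Lep* (0.08 FPKM, next 0.02), Tb 4 in *Pck1* (0.14 FPKM, next 0.02) and Tb-DOX 2 in *Pck1* (0.09 FPKM, next 0.02). The single-gene values rest on 10 reads or fewer each.

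No member passed the interaction test. Of 66 tested genes of the fat-related lists 3 passed an adjusted p of 0.05 for it, which is 4.55%, against 8.94% of all 13990 genes by the same rule. The interaction was 1.12 for *Sncg* (edgeR adjusted p = 0.0111) and 2.29 for *Pi16* (edgeR adjusted p = 0.00753), and both passed an adjusted p of 0.05 in all 29 alternatives. It was −0.63 for *Lpl* (edgeR adjusted p = 0.0378), which passed in 12 of 29 alternatives, with an adjusted p of up to 0.16.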

How the results depend on the processing

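*Plin4* was called in DOX against Control under all 9 other tests and settings and in all 21 fits that left out a library, and the number of members called was 1 there and 0 in the other comparisons, except 1 in Tb-DOX against DOX with no minimum fold change. The log2 fold change of *Plin4* in DOX against Control was 1.04 to 1.38 over left-out libraries and 1.01 to 1.23 over the other settings, and 1.04 (edgeR adjusted p = 0.000142) without DOX 4 and Tb 5. Values near 0 changed sign. *Plin4* in Tb against Control was 0.014 with only the groups compared and 0.019 with limma at either pseudocount, and −0.079 to 0.073 over left-out libraries. *Cidea* in Tb against Control was −0.12 to 0.0029 over left-out libraries, and with limma *Cidea* in Tb-DOX against DOX was 0.051 and 0.048 at pseudocounts of 0.1 and 1, and the *Cidea* interaction 0.078 and 0.074. limma on FPKM moved the median of all genes to −0.14 in DOX against Control, 0.19 in Tb-DOX against DOX and 0.16 for the interaction, where *Plin4* was 1.02, −0.46 (limma adjusted p = 0.129) and −0.48 (limma adjusted p = 0.289), or 1.16, −0.65 and −0.64 relative to that median. Relative to it, *Cidea* was −0.14 in Tb-DOX against DOX and −0.08 for the interaction. *Cidea* in DOX against Control had an adjusted p of 0.0494 with DESeq2. With the replicate number as a block, the log2 fold changes of *Plin4* were 1.18, 0.57, −0.08, −0.68 and −0.60 in DOX against Control, Tb-DOX against Tb, Tb against Control, Tb-DOX against DOX and the interaction, and no call of a member changed. The permutation tests under 0.05 were 3 with either pseudocount, and the highest summed FPKM of the 8 low members was 1.64, or 1.82 after division by TMM factors. Of 54 changes past an adjusted p of 0.05 in the fat-related lists, 0 changed sign, and 10 of the 16 that were called lost the call under at least 1 setting or left-out library. Without DOX 4 and Tb 5, 49 of the 54 still passed an adjusted p of 0.05, and the other 5 were *Klf15* in DOX against Control, *Icam1* in Tb against Control, *Lepr* and *Plin2* in Tb-DOX against DOX and the *Lpl* interaction.

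At the depth of these libraries, members at or below 3 counts in every library of a group were not compared by fold, and 5 to 6 libraries per group limit what the tests can find.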
